A study of Homo sapiens with 12 samples.

Results

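The protein subunits of the respiratory chain and ATP synthase were examined as transcripts in C4-2 cells treated with an inhibitor of the kinase PBK. They were chosen by a rule on gene names, set when earlier results of these data were known. The rule took protein-coding genes whose current symbol is that of a subunit of complex I (NDUFA, NDUFB, NDUFC, NDUFS and NDUFV genes), complex II (SDHA to SDHD), complex III (UQCR genes and CYC1), complex IV (COX4 to COX8 genes) or complex V (ATP5 genes), or of a protein encoded by the mitochondrial genome. This gave 103 genes, 90 in the nucleus and 13 in mitochondrial DNA. The count tables list 102 of them (all but NDUFA7) among 54127 genes. The nuclear genes comprised 37 of complex I, 4 of complex II, 10 of complex III, 19 of complex IV and 20 of complex V, with NDUFA4 and NDUFA4L2 placed in complex IV, and the mitochondrial genes 7, 0, 1, 3 and 2.

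C4-2 is an androgen-responsive prostate cancer cell line that descends from LNCaP. All cells carried the same line's genome, and the only agents that differed were the vehicle DMSO and 1 µM of the PBK inhibitor HI-TOPK-032 (PBKi), given for 6 h, with 6 samples in each group. The study's methods name a poly(A)-selecting kit for RNA sequencing. Reads were counted per gene, and the samples held 9663203 to 28029908 reads on genes. Whether the 6 samples of a group came from separate cultures was not stated, so the p-values below measure the spread between these samples, which may be technical.

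The respiratory chain passes electrons from NADH, through complex I, and from succinate, through complex II, to ubiquinone, then through complex III and cytochrome c to complex IV, which reduces oxygen. Complexes I, III and IV pump protons across the inner mitochondrial membrane, and complex V (ATP synthase) uses their return to make ATP. Complexes I, III, IV and V are each built from subunits of both genomes and complex II from nuclear subunits only. The mitochondrial genes are transcribed inside the organelle from both strands of a circular genome by their own RNA polymerase, as long precursors that are cut into single RNAs.

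The 9 markers of luminal prostate cells were all present, with a summed level of 5138 to 6229 CPM in DMSO and 2573 to 3576 CPM in PBKi. The part of this difference in the results that follow was not tested. CPM is the count scaled to a library of 1000000 reads, after each library size was multiplied by its TMM scaling factor. These factors were 0.958 to 1.002 in DMSO and 1.002 to 1.036 in PBKi. Of 4 leukocyte markers none passed 1 CPM in any sample, and 1 of 5 fibroblast (COL1A1), 1 of 2 endothelial (VWF) and 1 of 3 basal markers (KRT14) did, with sums of at most 23.2, 7.24 and 1.73 CPM. The PBK transcript was 169, 217 and 269 CPM in DMSO and 140.03, 167 and 185 CPM in PBKi (lowest, median and highest; log2 fold change -0.42, SE 0.095, adjusted p = 0.00194), but the compound acts on the kinase, so this level is no check of the labels.

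The transcripts of the 2 genomes moved in opposite directions. Summed over the 13 mitochondrial genes, the lowest, median and highest sample had 4081, 7619 and 10836 CPM in DMSO and 6741, 13042 and 19234 CPM in PBKi, and the group means stood at a ratio of 1.79. The ranges overlapped, since DMSO replicate 5 was above 1 of the 6 PBKi samples and PBKi replicate 5 was below 4 of the 6 DMSO samples. Summed over the nuclear members, the levels were 15126, 16684 and 18754 CPM in DMSO and 13058, 14090.2 and 14999 CPM in PBKi, at a ratio of 0.829. Here every PBKi sample was below every DMSO sample. That separation held for the TMM-scaled CPM and not for the raw shares of reads given below.

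**Figure D1:**
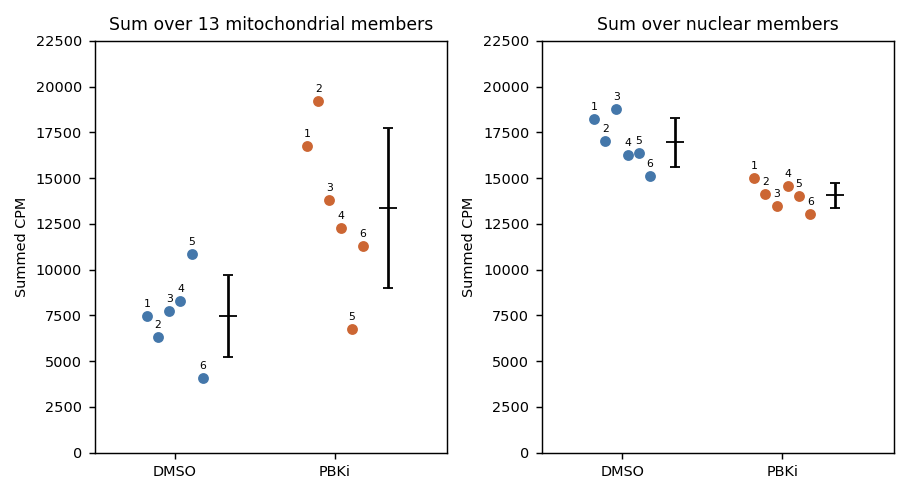
Summed CPM of the 13 mitochondrial members (left) and of the nuclear members (right) in each sample, with the replicate number above each point and the mean ± SD of 6 samples beside each group. The mitochondrial sum was higher in PBKi on average, with replicate 5 of each group against that direction, and the nuclear sum was lower in all 6 PBKi samples than in any DMSO sample.

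As a share of all reads on genes, the mitochondrial members took 0.732% ± 0.208 (SD, n = 6) in DMSO and 1.36% ± 0.440 (SD, n = 6) in PBKi. The nuclear members took 1.67% ± 0.142 (SD, n = 6) and 1.43% ± 0.0640 (SD, n = 6). Reads on mitochondrial members per read on nuclear members ran from 0.270 to 0.663 in DMSO and from 0.480 to 1.36 in PBKi. In PBKi replicates 1 to 3 the mitochondrial reads outnumbered the nuclear ones, which happened in no DMSO sample. These are shares of a library, so they measure neither RNA per cell nor the number of cells. A change in the RNA of the members and a change in all other RNA cannot be told apart.

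Gene by gene, all 13 mitochondrial members were higher in PBKi by the quasi-likelihood test of edgeR, called where the Benjamini-Hochberg adjusted p was under 0.05 over 14505 genes, where 20.1% of all genes tested were called higher and 41.7% in either direction. Of 81 nuclear members tested, 59 were lower, 2 were higher and 20 did not pass, where 21.6% of all genes tested were called lower. The median log2 fold change was 0.88 over the mitochondrial members, -0.25 over the nuclear members and -0.012 over all genes tested. Among the 71 nuclear members with a mean of at least 50 CPM, 53 were lower, where 29.9% of all genes at that level were.

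The 2 genomes differed in size of change and in spread. The nuclear changes were small, from -0.61 to 0.50 on the log2 scale with standard errors of 0.043 to 0.169. The mitochondrial changes ran from 0.73 to 1.00 with standard errors of 0.187 to 0.275. For 16 nuclear members all PBKi samples were below all DMSO samples, which held for 9.68% of all genes tested, and for 1 (ATP5IF1) all were above, which held for 10.5%. For all 13 mitochondrial members the groups overlapped.

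**Figure D2:**
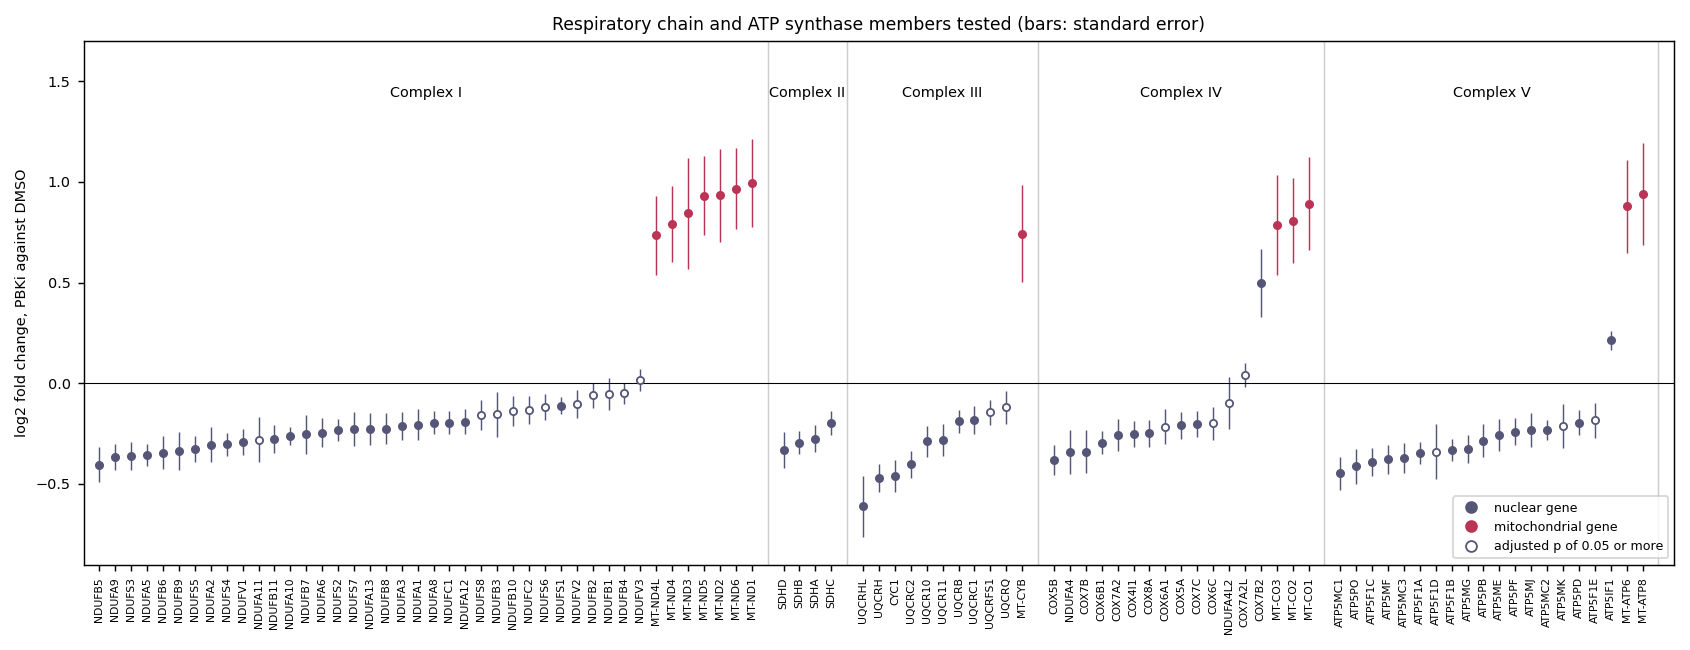
Log2 fold change of PBKi against DMSO, with its standard error, for each of the 94 members tested, grouped by complex and sorted within each genome. Mitochondrial genes sit between 0.73 and 1.00, and all but 4 of the nuclear genes lie below 0.

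The other 9 members had no test. NDUFA7 was not matched to the identifiers of the count files and is not analysed here. The readthrough genes NDUFC2-KCTD14 and ATP5MF-PTCD1 held 0 reads in total, and a read shared with NDUFC2 or ATP5MF counts for neither gene in the default mode of HTSeq, the counting program. COX4I2, COX6A2, COX6B2, COX7A1, COX8C and ATP5MGL had 1, 1, 26, 10, 10 and 8 reads over all 12 samples, so differences in them were not detectable at this depth.

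The 13 mitochondrial genes lie between positions 3307 and 15887 of chromosome M (GRCh37), each as a single exon. Of the 7 complex I subunits, which build the proton-pumping arm in the membrane, MT-ND1 rose most. MT-ND1 had 178, 352 and 513 CPM in DMSO and 355, 669 and 968 CPM in PBKi (lowest, median and highest; log2 fold change 1.00, SE 0.218, adjusted p = 0.00145). Only the lowest PBKi sample, replicate 5, fell within the DMSO range. MT-ND2 had 172, 350.1 and 491 CPM in DMSO and 332, 608 and 1010.5 CPM in PBKi (log2 fold change 0.93, SE 0.231, adjusted p = 0.00364), with the same overlap. MT-ND4 had 1077, 1935 and 2403 CPM in DMSO and 1791, 3048 and 4363 CPM in PBKi (log2 fold change 0.79, SE 0.187, adjusted p = 0.00258) and held the most reads of the 13. MT-ND4L, which shares 7 bases with MT-ND4, had 120.0, 208 and 304 CPM in DMSO and 189, 368 and 465 CPM in PBKi (log2 fold change 0.73, SE 0.196, adjusted p = 0.00606), the smallest rise of the 13.

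MT-ND3, a short subunit gene, had 66.6, 107 and 211 CPM in DMSO and 91.6, 226 and 352 CPM in PBKi (log2 fold change 0.84, SE 0.275, adjusted p = 0.0203). MT-ND5, the longest of the 13, had 290.0, 471 and 647 CPM in DMSO and 491, 917 and 1325 CPM in PBKi (log2 fold change 0.93, SE 0.198, adjusted p = 0.00112). In MT-ND3 the highest DMSO sample came close to the PBKi median, and in MT-ND5 it lay well below it. MT-ND6 had 60.7, 103 and 129 CPM in DMSO and 100.03, 198 and 292 CPM in PBKi (log2 fold change 0.96, SE 0.201, adjusted p = 0.000968) and is the only one of the 13 on the other strand. The strand setting of the count was not given in the sources used here, so reads from MT-ND6 and from RNA antisense to it cannot be told apart.

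Cytochrome b (MT-CYB), the mitochondrial subunit of complex III, had 353, 653 and 1120.3 CPM in DMSO and 576, 1117 and 1802 CPM in PBKi (log2 fold change 0.74, SE 0.24, adjusted p = 0.0192). The 3 mitochondrial subunits of complex IV form its catalytic core, and the largest, MT-CO1, had 725, 1332 and 2078 CPM in DMSO and 1136, 2495 and 3521 CPM in PBKi (log2 fold change 0.89, SE 0.231, adjusted p = 0.00498). MT-CO2, which takes electrons from cytochrome c, had 348, 601 and 857 CPM in DMSO and 549, 1033 and 1488 CPM in PBKi (log2 fold change 0.81, SE 0.21, adjusted p = 0.00509). In each of the 3, as in the other 10, DMSO replicate 5 was higher than PBKi replicate 5. MT-CO3 had 443, 894 and 1407 CPM in DMSO and 703, 1559 and 2255 CPM in PBKi (log2 fold change 0.78, SE 0.247, adjusted p = 0.0168).

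**Figure D3:**
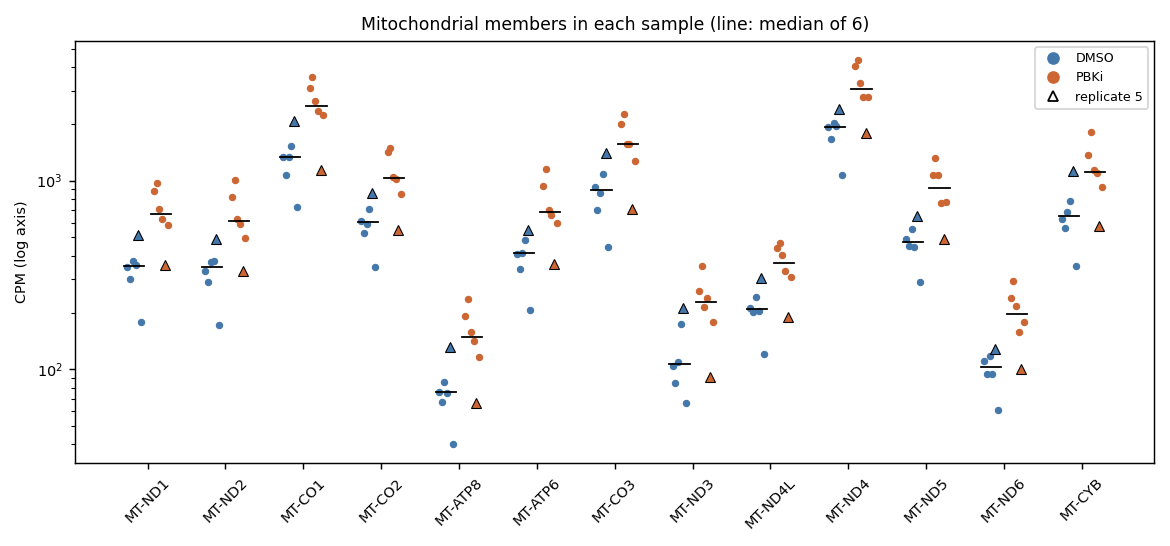
CPM of the 13 mitochondrial members in each sample on a log axis, in the order of their start on the mitochondrial genome, with a line at the median of 6 samples and triangles for replicate 5. The PBKi medians are above the DMSO medians for all 13, and for all 13 DMSO replicate 5 is above PBKi replicate 5.

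The pair of mitochondrial subunits of complex V are part of its membrane sector. MT-ATP6, which lines the proton path, had 207, 412 and 546 CPM in DMSO and 359.8, 681 and 1155 CPM in PBKi (log2 fold change 0.88, SE 0.23, adjusted p = 0.00546). MT-ATP8 had 40.3, 75.4 and 132 CPM in DMSO and 66.3, 149 and 237 CPM in PBKi (log2 fold change 0.94, SE 0.254, adjusted p = 0.00662). Their reading frames overlap on one RNA by 46 bases (chrM:8527-8572, GRCh37), printed here because a read that touches it belongs to both genes and counts for neither in HTSeq's default mode, with the start codon of MT-ATP6 in capitals.
MT-ATP8 and MT-ATP6: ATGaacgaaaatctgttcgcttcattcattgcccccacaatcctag
In that mode the counts of both genes come from the rest of their length. The mode used was not given in the sources used here.

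Within the mitochondrial reads the mix of genes moved little. MT-ND4 took 25.0% of them on average in DMSO and 24.1% in PBKi, and MT-CO1 17.9% and 18.6%. MT-ND1 took 4.33% to 4.82% in DMSO and 5.03% to 5.27% in PBKi, and it was the only one of the 13 whose share did not overlap between the groups. This gene was singled out after its values were seen. Per kilobase of gene, MT-ND4 was highest in DMSO (1333 CPM per kb), followed by MT-CO3 (1153), and MT-ND6 was lowest (192).

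That order depends on which reads could be counted, and the part of poly(A) selection in it was not tested. Nuclear DNA holds copies of mitochondrial DNA, and reads that aligned to more than 1 place, 26.7% to 29.3% of the alignments listed per sample, were not counted. Of all stretches of 40 bases (the read length) in MT-CO1, 40.3% occur once in GRCh37, against 43.6% in MT-ATP6, 89.8% in MT-ND4 and 99.3% in MT-ND3. Per 1000 such single-copy stretches MT-CO1 was highest (2220.3 CPM in DMSO), ahead of MT-CO3 (1965), and MT-ND6 stayed lowest (279.9). The rise in PBKi was found at both ends of this scale, with 0.89 in MT-CO1 and 0.84 in MT-ND3 on the log2 scale.

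The mitochondrial ribosomal RNA genes, which are not members, were higher too. MT-RNR1 was at 197, 310.1 and 384 CPM in DMSO and 304, 549.7 and 667 CPM in PBKi (log2 fold change 0.81, SE 0.171, adjusted p = 0.00106). MT-RNR2 was at 483, 714 and 1359 CPM in DMSO and 760.1, 1687 and 2700.3 CPM in PBKi (log2 fold change 1.04, SE 0.251, adjusted p = 0.00297). Genes annotated as nuclear pseudogenes of the 13 summed to 29.4 to 71.1 CPM in DMSO and 50.4 to 159 CPM in PBKi, a ratio of means of 1.81 against 1.79 for the members. Reads of such copies and of mitochondrial RNA can share sequence, and the part of this in the pseudogene counts was not tested.

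The mitochondrial rise rested unevenly on the samples. In replicates 1 to 3 alone (3 against 3) all 13 genes were higher with a median log2 fold change of 1.24, where 22.6% of all genes tested were called higher. In replicates 4 to 6 alone all 13 fold changes were positive with a median of 0.40 but 0 passed (adjusted p 0.0850 to 0.769 by edgeR's quasi-likelihood test), where 9.08% of all genes were called higher. At an unadjusted p under 0.05, 2 of the 13 were higher in that set, a share like that of all genes tested (14.8%), and no other tool was run on it. A test of the difference between the sets gave an adjusted p of 0.927 for each of the 13, so a difference between sets was not shown (for 10 of them the unadjusted p was under 0.05, as for 4.83% of all genes). The labels name no batch, and this split was taken over from earlier results of these data. DMSO replicate 5, the sample with the highest mitochondrial sum of its group, was also the shallowest sample and had 3 sequencing lanes where every other sample had 4. Without it the median rose to 1.04, and without PBKi replicate 2, the highest sample, it was 0.72 and 11 of the 13 passed (MT-ND3 and MT-CYB did not).

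**Figure D4:**
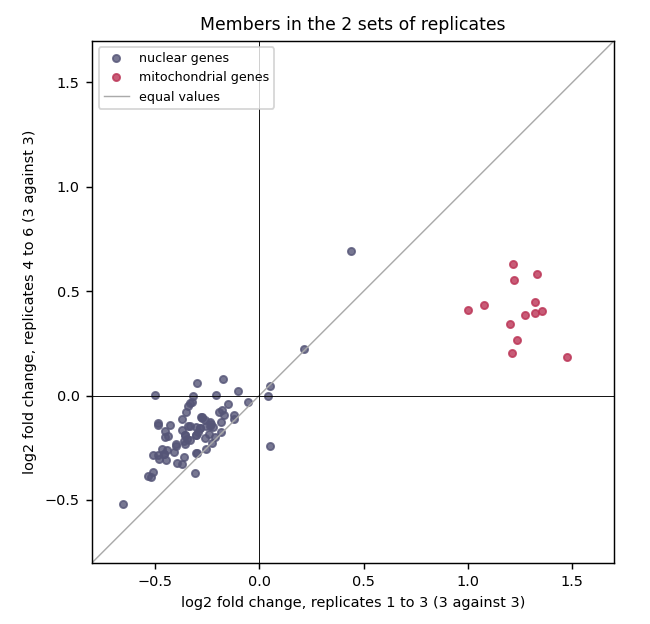
Log2 fold change of the 94 members in replicates 1 to 3 (horizontal axis) and in replicates 4 to 6 (vertical axis), each 3 PBKi against 3 DMSO samples, with a line of equal values. The 13 mitochondrial genes are positive in both sets and lie below the line, with medians of 1.24 and 0.40, and most nuclear genes are negative in both.

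Among the nuclear genes, complex I, the entry point for NADH, had 24 of 35 tested members lower while the other 11 did not pass, with a median log2 fold change of -0.23. The summed level was 3717, 4142 and 4567 CPM in DMSO and 3378, 3590.1 and 3802 CPM in PBKi, and the ranges overlapped only slightly. Its 7 nuclear core subunits, which carry the flavin and iron-sulfur clusters or the ubiquinone site, were lower in 5 of 7 cases and its accessory subunits in 19 of 28, with medians of -0.23 and -0.23.

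NDUFB5, an accessory subunit of the membrane arm (chromosome 3, 179322478 to 179345435, GRCh37), fell most, with 155, 188 and 235 CPM in DMSO and 125, 151 and 155 CPM in PBKi (log2 fold change -0.40, SE 0.088, adjusted p = 0.00144). NDUFA9 (chromosome 12, 4758261 to 4803483), an accessory subunit near the ubiquinone site, had 67.6, 76.5 and 86.3 CPM in DMSO and 54.0, 60.3 and 65.1 CPM in PBKi (log2 fold change -0.37, SE 0.064, adjusted p = 0.000186). In both genes the 6 PBKi samples were all below the 6 DMSO samples. At the other end of the called genes was NDUFS1, the largest core subunit, with 226, 244 and 253 CPM in DMSO and 219, 225 and 229 CPM in PBKi (log2 fold change -0.11, SE 0.043, adjusted p = 0.047). NDUFA12, an accessory subunit, was next with 70.7, 77.1 and 89.5 CPM in DMSO and 61.9, 69.6 and 74.1 CPM in PBKi (log2 fold change -0.19, SE 0.062, adjusted p = 0.0186). Both overlapped between groups, and NDUFS1 passed in 1 of 12 fits that each left out 1 sample. NDUFV3, the one nuclear complex I gene with a positive value (named after its values were seen), had 50.4, 54.5 and 60.7 CPM in DMSO and 53.0, 55.5 and 57.5 CPM in PBKi (log2 fold change 0.02, SE 0.055, adjusted p = 0.836).

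Complex II oxidises succinate in both the citric acid cycle and the respiratory chain, and all 4 of its genes were lower. SDHA, the flavoprotein (ENSG00000073578, chromosome 5, 218418 to 257197), had 149, 159 and 181 CPM in DMSO and 118, 134 and 147 CPM in PBKi (log2 fold change -0.27, SE 0.066, adjusted p = 0.00278), with no overlap between groups. SDHB, the iron-sulfur subunit, had 120.0, 145 and 151 CPM in DMSO and 109, 115 and 122 CPM in PBKi (log2 fold change -0.29, SE 0.058, adjusted p = 0.000583), and 1 low DMSO sample reached into the PBKi range. The membrane anchors were lower with overlapping ranges. SDHC had 180.0, 200.3 and 233 CPM in DMSO and 165, 176 and 185 CPM in PBKi (log2 fold change -0.20, SE 0.06, adjusted p = 0.0129). SDHD had 134, 172 and 216 CPM in DMSO and 127, 142 and 155 CPM in PBKi (log2 fold change -0.33, SE 0.089, adjusted p = 0.00609). The sum of the 4 did not overlap between groups, at 632, 673 and 749 CPM in DMSO and 538, 571 and 587 CPM in PBKi. Only 28.9% of SDHC and 42.0% of SDHD can be read uniquely with 40 bases, so their counts come from a smaller part of the transcript than those of SDHB, all of which can.

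Complex III had 8 of 10 nuclear genes lower and the other 2 (UQCRFS1 and UQCRQ, named after their values were seen) did not pass, with a median log2 fold change of -0.29. The summed level was 1897, 2182 and 2448 CPM in DMSO and 1635, 1799.8 and 1947 CPM in PBKi, with overlapping ranges. UQCRH, the hinge protein that holds cytochrome c1 (ENSG00000173660, chromosome 1, 46769370 to 46782448), had 243, 272 and 315 CPM in DMSO and 179, 201 and 222 CPM in PBKi (log2 fold change -0.47, SE 0.068, adjusted p = 2.93e-05), with the lowest adjusted p of all nuclear members. No PBKi sample reached the DMSO range. Its copy UQCRHL, a gene without introns, had 1.73, 2.53 and 2.70 CPM in DMSO and 1.18, 1.60 and 1.91 CPM in PBKi (log2 fold change -0.61, SE 0.153, adjusted p = 0.00397), the largest fall among the members tested, at a low level. Since 67.7% of UQCRH and 65.4% of UQCRHL in stretches of 40 bases occur once in the genome, reads of the pair cannot be assigned with certainty.

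CYC1, cytochrome c1 itself, had 231, 298 and 327 CPM in DMSO and 188, 209 and 244 CPM in PBKi (log2 fold change -0.46, SE 0.081, adjusted p = 0.000211). UQCRC2, a core protein of the matrix side, had 384, 427 and 482 CPM in DMSO and 291, 326 and 362 CPM in PBKi (log2 fold change -0.40, SE 0.067, adjusted p = 0.000124). Both were named after their values were seen. UQCRC2 did not overlap between groups and CYC1 did. The smallest called falls were in UQCRB and UQCRC1. UQCRB had 182, 203 and 221 CPM in DMSO and 168, 176 and 191 CPM in PBKi (log2 fold change -0.19, SE 0.056, adjusted p = 0.0114). UQCRC1, the other core protein, had 198, 229.9 and 279 CPM in DMSO and 187, 207 and 217 CPM in PBKi (log2 fold change -0.18, SE 0.069, adjusted p = 0.0397). UQCRC1 passed in 5 of 12 fits without 1 sample, where UQCRH, CYC1 and UQCRC2 passed in all 12.

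Complex IV, which passes electrons to oxygen, had 9 of 14 tested nuclear genes lower and 1 higher. The summed level of its nuclear genes was 2293, 2614 and 3074 CPM in DMSO and 2040.4, 2232 and 2391 CPM in PBKi, with overlapping ranges. COX5B, which binds zinc on the matrix side (chromosome 2, 98262525 to 98264846), fell most, with 129.9, 163 and 179.7 CPM in DMSO and 112, 122 and 134 CPM in PBKi (log2 fold change -0.38, SE 0.074, adjusted p = 0.000493). NDUFA4, named for complex I and found with complex IV, had 259.8, 322 and 425 CPM in DMSO and 221, 263 and 281 CPM in PBKi (log2 fold change -0.34, SE 0.109, adjusted p = 0.0178). COX7C, at the small end of the called falls, had 322, 364 and 413 CPM in DMSO and 289, 320.2 and 337 CPM in PBKi (log2 fold change -0.20, SE 0.065, adjusted p = 0.0191). No nuclear gene of complex IV separated the groups fully. In COX5B the highest PBKi sample was just above the lowest DMSO sample, and in NDUFA4 and COX7C the overlap was wider.

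The single called rise in complex IV was COX7B2, a relative of COX7B known from testis, at a low level of 1.62, 2.27 and 3.53 CPM in DMSO and 2.98, 3.66 and 4.43 CPM in PBKi (log2 fold change 0.50, SE 0.169, adjusted p = 0.0253). It passed in 9 of 12 fits without 1 sample. The ubiquitous COX7B, named after its values were seen, went the other way, with 195, 246 and 318 CPM in DMSO and 173, 203 and 223 CPM in PBKi (log2 fold change -0.34, SE 0.108, adjusted p = 0.0179).

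Complex IV subunits come in tissue forms, and C4-2 cells used the ubiquitous ones in both groups. COX4I1 had 294, 351 and 382 CPM in DMSO and 267, 288 and 317 CPM in PBKi (log2 fold change -0.25, SE 0.066, adjusted p = 0.00536), while the lung form COX4I2 had 1 read in all. COX6A1, the liver form, had 46.8, 56.0 and 70.6 CPM in DMSO and 45.7, 50.4 and 54.3 CPM in PBKi (log2 fold change -0.22, SE 0.087, adjusted p = 0.0546) and did not pass, and the muscle form COX6A2 had 1 read. COX7A2, the liver form, had 133, 157 and 195 CPM in DMSO and 122, 135 and 141 CPM in PBKi (log2 fold change -0.26, SE 0.079, adjusted p = 0.0144), and the muscle form COX7A1 had 10 reads. The COX4 and COX7A forms in use were thus lower, and the COX6A form in use did not pass. COX7A2L, which helps complexes III and IV to associate, had 72.1, 84.2 and 85.6 CPM in DMSO and 76.2, 83.5 and 94.5 CPM in PBKi (log2 fold change 0.04, SE 0.061, adjusted p = 0.622). NDUFA4L2, a hypoxia-inducible relative of NDUFA4, was at 4.14, 6.61 and 7.12 CPM in DMSO and 4.76, 5.68 and 6.34 CPM in PBKi (log2 fold change -0.10, SE 0.13, adjusted p = 0.576) and did not pass.

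Complex V had 14 of 18 tested nuclear genes lower, 1 higher and 3 that did not pass (ATP5F1D, ATP5F1E and ATP5MK, named after their values were seen), with a median log2 fold change of -0.31. Their summed level was 6586, 7136 and 7915 CPM in DMSO and 5464, 5917 and 6273 CPM in PBKi, with no overlap between groups. ATP5F1B, the catalytic beta subunit and the nuclear member with most reads (ENSG00000110955, chromosome 12, 57031959 to 57039768), had 2443, 2574 and 2652 CPM in DMSO and 1794, 2060.3 and 2155 CPM in PBKi (log2 fold change -0.33, SE 0.055, adjusted p = 0.000117). Per kilobase of its canonical transcript ATP5F1B stood at 1451 CPM in DMSO and 1153 CPM in PBKi (group means), where MT-ND4 stood at 1333 and 2306 CPM. The order of these 2 means was thus the other way round in PBKi, but single DMSO samples differed in that order. Whether poly(A) selection takes up RNA of the 2 genomes alike was not tested. Its partner ATP5F1A, the alpha subunit, had 1146, 1213 and 1318 CPM in DMSO and 892, 976 and 1033 CPM in PBKi (log2 fold change -0.35, SE 0.056, adjusted p = 8.87e-05). Both pairs of ranges were separate, and both genes were named after their values were seen.

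The largest falls of complex V were outside the catalytic head. ATP5MC1, 1 of 3 genes for the c subunit of the rotor ring, had 111, 141 and 164 CPM in DMSO and 86.9, 100.5 and 115 CPM in PBKi (log2 fold change -0.45, SE 0.083, adjusted p = 0.00037). ATP5PO, in the stalk that holds the head, had 114, 133 and 169 CPM in DMSO and 89.3, 105 and 113 CPM in PBKi (log2 fold change -0.41, SE 0.088, adjusted p = 0.00121). The other c subunit genes, whose mature proteins are identical, were lower too. ATP5MC2 had 219, 234 and 239 CPM in DMSO and 181, 197 and 212 CPM in PBKi (log2 fold change -0.23, SE 0.049, adjusted p = 0.00105). ATP5MC3 had 301, 353 and 424 CPM in DMSO and 255, 286 and 306 CPM in PBKi (log2 fold change -0.37, SE 0.073, adjusted p = 0.000607). Of the 3 genes of the c subunit, ATP5MC2 alone separated the groups. ATP5PD, another stalk subunit and the smallest called fall, had 183, 204 and 233 CPM in DMSO and 172, 177 and 195 CPM in PBKi (log2 fold change -0.20, SE 0.061, adjusted p = 0.015).

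A single nuclear member went up with no overlap. ATP5IF1 (ENSG00000130770, chromosome 1, 28562620 to 28573417), the inhibitor that blocks the ATPase activity of complex V when the proton gradient falls, had 143, 157 and 162 CPM in DMSO and 168, 181 and 188 CPM in PBKi (log2 fold change 0.21, SE 0.047, adjusted p = 0.00144; exact two-sided permutation p = 0.00216, the smallest that 924 splits of 6 against 6 allow). All 6 PBKi samples were above all 6 DMSO samples. Any gene whose groups do not overlap gets this smallest permutation p, so it restates the separation and adds no support of its own. On the log2 scale it rose by 0.21 in the first 3 replicates and by 0.23 in the last 3, and it passed in all 12 fits without 1 sample.

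**Figure D5:**
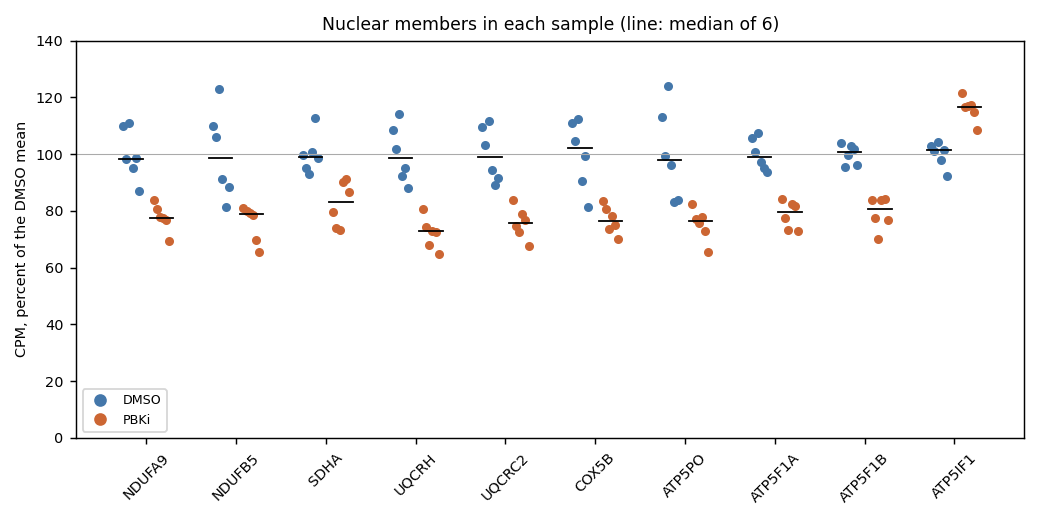
CPM of 10 nuclear members in each sample, as a percent of the DMSO mean of the same gene, with a line at the median of 6 samples. Of these, 9 genes have lower PBKi medians than DMSO medians and ATP5IF1 has a higher one, and COX5B is the one gene of the 10 whose groups overlap. The genes drawn are not typical in this, since the groups overlapped for 64 of the 81 nuclear members tested.

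The nuclear falls held in both sets of replicates in sign but not in number. In replicates 1 to 3, 71 of 81 were lower, where 21.3% of all genes tested were, and in replicates 4 to 6, 17, where 8.48% were, with 73 of 81 fold changes below 0 in the latter. PBKi replicates 3 and 6 had 9.30% and 8.83% of their uniquely aligned reads outside genes, where the other 10 samples had 5.74% to 6.96%. Without these 2 samples 28 nuclear members were lower, where 14.1% of all genes were, with a median of -0.20, and all 13 mitochondrial members were still higher. The part of reads outside genes in these counts was not tested otherwise.

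Promoters of nuclear members were searched for the letters of factors known to act on respiratory genes, since many members moved together. RefSeq promoters (GRCh38.p14, 250 bases before to 50 after the gene start) were matched for 70 of the 90 nuclear members. The NRF1 letters (GCGC, any base, then TGCGC), on either strand, occurred in 17 (24.3%), against 5.78% of all promoters of that length and 12% of those of genes tested. The ETS letters CCGGAAG, read by GABPA among others, occurred in 20 (28.6%), against 10.3% and 19.2%. The YY1 letters AAGATGGCG occurred in 8 (11.4%), against 1.75% and 3.94%, and the SP1 letters GGGCGG in 43 (61.4%), against 45% and 70%.

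The matches were then split by call, with no test of the difference. NRF1 letters were in 13 of 47 promoters of members that were lower and in 3 of 18 of the other members tested, and ETS letters in 17 and 3. YY1 letters were in 7 and 0 of the same promoters, and SP1 letters in 28 and 12. A match describes letters and is not a binding site. A lowered gene of each complex and ATP5IF1, which rose, are printed 5′ to 3′ on the strand of the gene, with NRF1, ETS and YY1 letters (either strand, searched separately) in capitals.
NDUFA9, complex I, chr12:4648864-4649163 (plus strand): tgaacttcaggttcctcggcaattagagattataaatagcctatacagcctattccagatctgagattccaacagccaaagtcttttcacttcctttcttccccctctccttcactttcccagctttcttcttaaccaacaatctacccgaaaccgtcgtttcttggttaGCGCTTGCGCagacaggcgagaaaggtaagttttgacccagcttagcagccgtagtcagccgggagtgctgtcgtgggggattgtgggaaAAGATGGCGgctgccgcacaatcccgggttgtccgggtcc
SDHA, complex II, chr5:218070-218369 (plus strand): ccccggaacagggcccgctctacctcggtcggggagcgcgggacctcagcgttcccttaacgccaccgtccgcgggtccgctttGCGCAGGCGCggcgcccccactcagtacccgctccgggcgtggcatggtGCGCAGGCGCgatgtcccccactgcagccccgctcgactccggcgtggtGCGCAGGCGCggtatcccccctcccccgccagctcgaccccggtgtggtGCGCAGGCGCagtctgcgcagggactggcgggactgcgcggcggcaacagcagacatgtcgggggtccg
UQCRH, complex III, chr1:46303448-46303747 (plus strand): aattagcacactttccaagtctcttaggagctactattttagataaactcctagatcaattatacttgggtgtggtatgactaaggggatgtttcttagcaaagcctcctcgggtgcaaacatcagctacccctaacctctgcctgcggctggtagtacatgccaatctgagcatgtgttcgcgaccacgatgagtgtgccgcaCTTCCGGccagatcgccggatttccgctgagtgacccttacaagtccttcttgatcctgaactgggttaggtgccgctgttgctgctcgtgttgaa
COX5B, complex IV, chr2:97645812-97646111 (plus strand): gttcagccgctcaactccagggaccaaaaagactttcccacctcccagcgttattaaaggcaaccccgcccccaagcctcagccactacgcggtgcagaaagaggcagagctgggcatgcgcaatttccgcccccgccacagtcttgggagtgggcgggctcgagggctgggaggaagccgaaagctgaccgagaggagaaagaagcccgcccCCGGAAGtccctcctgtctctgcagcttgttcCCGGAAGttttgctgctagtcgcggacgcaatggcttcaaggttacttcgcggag
ATP5PO, complex V, chr21:33915755-33916054 (minus strand): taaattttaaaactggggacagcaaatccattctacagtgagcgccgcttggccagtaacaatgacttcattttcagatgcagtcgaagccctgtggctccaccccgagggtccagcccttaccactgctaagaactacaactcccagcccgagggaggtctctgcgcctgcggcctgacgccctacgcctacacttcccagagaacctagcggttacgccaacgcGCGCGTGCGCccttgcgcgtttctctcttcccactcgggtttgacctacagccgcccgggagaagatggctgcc
ATP5IF1, complex V inhibitor, chr1:28235874-28236173 (plus strand): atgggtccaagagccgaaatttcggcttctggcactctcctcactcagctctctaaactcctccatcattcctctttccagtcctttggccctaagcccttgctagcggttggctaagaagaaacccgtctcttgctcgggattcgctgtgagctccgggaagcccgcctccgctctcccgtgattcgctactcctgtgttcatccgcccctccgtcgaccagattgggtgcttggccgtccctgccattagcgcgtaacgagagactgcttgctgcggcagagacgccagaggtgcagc
NDUFA9 held 1 match of NRF1 letters and 1 of YY1 letters, SDHA 4 of NRF1, UQCRH 1 of ETS, COX5B 2 of ETS and ATP5PO 1 of NRF1. The 4 matches of SDHA began 166, 117, 68 and 19 bases before the gene start. ATP5IF1 held none of the 3 in this window. The lowered genes printed all held a match, which was not true of all lowered members. UQCRC2, COX7B and ATP5MC1, for example, were lower and held none of the 3 in their windows.

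Genes that work beside the subunits were taken from lists, and their counts stand beside 21.6% of all genes tested called lower (29.9% of those with a mean of at least 50 CPM) and 20.1% called higher. Of the factors that read these letters, NRF1 was at 20.2, 22.0 and 24.5 CPM in DMSO and 21.8, 22.7 and 23.8 CPM in PBKi (log2 fold change 0.03, SE 0.061, adjusted p = 0.772), and among 14 regulators tested 4 were lower (MYC, GABPA, ESRRA and YY1) and the other 10 did not pass, a share near that of all genes, with a median log2 fold change of 0.009. MYC, a growth regulator of many such genes, fell most, with 373, 403 and 418 CPM in DMSO and 214, 242 and 263 CPM in PBKi (log2 fold change -0.73, SE 0.055, adjusted p = 1.79e-08), and did not overlap between groups. GABPA, an ETS factor, was at -0.40 and YY1 at -0.21 on the log2 scale. PPARGC1A, a coactivator of mitochondrial biogenesis, was at 3.60, 4.66 and 5.18 CPM in DMSO and 3.69, 4.06 and 4.76 CPM in PBKi (log2 fold change -0.16, SE 0.11, adjusted p = 0.269).

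Of 32 genes for mitochondrial transcription, replication and RNA handling, 13 were lower and 3 higher, with a median of -0.12. TFAM, which packages mitochondrial DNA and opens its promoters, had 175, 197 and 223 CPM in DMSO and 148, 152 and 161 CPM in PBKi (log2 fold change -0.37, SE 0.055, adjusted p = 3.77e-05), with no overlap between groups. POLRMT, the mitochondrial RNA polymerase, had 65.0, 69.4 and 99.3 CPM in DMSO and 62.8, 68.8 and 73.2 CPM in PBKi (log2 fold change -0.11, SE 0.086, adjusted p = 0.342). The largest fall was in POLG2, an accessory subunit of the DNA polymerase, with 10.6, 15.4 and 18.9 CPM in DMSO and 10.6, 11.3 and 11.9 CPM in PBKi (log2 fold change -0.43, SE 0.115, adjusted p = 0.00626). MTERF4, which acts on the mitochondrial ribosome, rose most, with 37.4, 42.4 and 47.0 CPM in DMSO and 45.95, 52.7 and 60.3 CPM in PBKi (log2 fold change 0.32, SE 0.078, adjusted p = 0.00355).

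Of 50 assembly factors tested, 16 were lower, 3 higher and 31 did not pass, with a median of -0.08. The share lower was above the 21.6% of all genes tested and close to the 29.9% of genes at a mean of at least 50 CPM. Many of these factors were below that level, so the second comparison is with unlike genes. The largest fall was in SDHAF4, which helps SDHA mature, with 6.59, 9.17 and 10.1 CPM in DMSO and 6.15, 6.53 and 7.15 CPM in PBKi (log2 fold change -0.46, SE 0.099, adjusted p = 0.00128). The 3 rises (SCO2, COA6 and COA7) were all in factors of complex IV assembly, led by SCO2, which brings copper to MT-CO2, with 7.60, 9.88 and 11.7 CPM in DMSO and 12.6, 13.2 and 15.2 CPM in PBKi (log2 fold change 0.47, SE 0.092, adjusted p = 0.000557). Other complex IV assembly factors of the list were called lower, among them COX10, COX11, SCO1, PET100 and PET117, so these factors did not move together. Among subunits and carriers that the naming rule leaves out, the complex I acyl carrier NDUFAB1 had 134, 157 and 198 CPM in DMSO and 112, 124 and 141 CPM in PBKi (log2 fold change -0.35, SE 0.086, adjusted p = 0.00318). CYCS, cytochrome c, had 532, 639 and 791 CPM in DMSO and 492, 548 and 607 CPM in PBKi (log2 fold change -0.25, SE 0.085, adjusted p = 0.0251). Both were lower, and DMAC2L, the third gene of that list, did not pass.

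The enzymes that feed the chain were mostly lower too. Of 18 genes of the citric acid cycle and pyruvate dehydrogenase, 13 were lower and 1 was higher, with a median of -0.27. SUCLG1, of succinyl-CoA ligase, fell most, with 129, 155 and 188 CPM in DMSO and 99.9, 115 and 124 CPM in PBKi (log2 fold change -0.46, SE 0.078, adjusted p = 0.000147). OGDH, of the oxoglutarate dehydrogenase complex, was the rise, with 253, 271 and 337 CPM in DMSO and 356, 369 and 407 CPM in PBKi (log2 fold change 0.40, SE 0.07, adjusted p = 0.000195). Neither overlapped between groups. Of 7 other genes whose enzymes pass electrons to ubiquinone, 3 were lower, led by the electron carrier ETFA with 332, 398 and 466 CPM in DMSO and 296, 330.4 and 361 CPM in PBKi (log2 fold change -0.28, SE 0.074, adjusted p = 0.00495). The 1 that was higher was SQOR, which oxidises hydrogen sulfide, with 33.9, 39.8 and 41.2 CPM in DMSO and 52.0, 58.4 and 62.3 CPM in PBKi (log2 fold change 0.57, SE 0.063, adjusted p = 1.68e-06).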

How the data were processed

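C4-2 cells received DMSO or PBKi, and RNA was sequenced in 6 samples a group. The authors deposited 47 tables of raw counts per gene and sequencing lane, with Ensembl identifiers. Per the submitters' processing notes and the study's methods, reads were aligned to GRCh37 with TopHat2 2.0.4 and counted with HTSeq 0.5.3p9, and DESeq 1.10.1 is also named. The labels and the methods name different RNA extraction kits, and the labels speak of flow sorted cells. HTSeq counts no read that aligns more than once or that falls in more than 1 gene, which lowers genes with copies. The siRNA experiment of the study is not analysed here.

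Lanes were summed per sample (3 lanes for DMSO replicate 5, 4 for the others), giving 9663203 to 28029908 reads on genes. HTSeq's summary lines stayed out of library sizes. They held 26.7% to 29.3% of alignments as not unique. Symbols and coordinates came from GENCODE release 44 lifted to GRCh37 (47098 of 54127 identifiers). Genes that reached 10 counts in 6 or more samples entered edgeR 4.0.16 (R 4.3.3, TMM scaling, quasi-likelihood F test, no covariate) and called at a Benjamini-Hochberg adjusted p under 0.05 over all genes tested. Log2 CPM for the exact permutation test used a prior count of 2. The alternatives were DESeq2 1.42.0, limma-voom (limma 3.58.1), other scalings, filters, lanes and thresholds, subsets of samples and a replicate block. The count test and the letter search were tested on simulated data.

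Members, gene lists and replicate sets were chosen with earlier results of these data known. Named were all 13 mitochondrial genes, the extreme called members of each complex, the SDH genes and isoform sets, the extreme called genes of each list, and CYCS, TFAM, POLRMT, NRF1 and PPARGC1A. Genes outside this rule (CYC1, UQCRC2, ATP5F1A, ATP5F1B, COX7B, NDUFV3, the members that did not pass, GABPA, YY1, ESRRA, COA6, COA7, the lowered complex IV assembly factors, the ribosomal RNA genes) were named after their values were seen.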

Additional observations from a re-analysis of the deposited data

Results flagged for a closer look

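In 4 of 188 sets of 6 samples (94 members, both groups), a single sample stood apart from the others by a larger share of its group's range than Dixon's critical value allows for 6 samples. That is 2.13% of the sets, where chance gives about 5%. NDUFA5, an accessory subunit of complex I, was at 146 CPM in DMSO replicate 5 and at 174 to 183 CPM in the other DMSO samples. SDHB, the iron-sulfur subunit of complex II, was at 120.0 CPM in DMSO replicate 6 and at 139 to 151 CPM in the others. ATP5F1D, a subunit of the central stalk of complex V, was at 206 CPM in DMSO replicate 5, where the others had 95.9 to 133 CPM, and at 82.9 CPM in PBKi replicate 3, where the others had 102 to 110.3 CPM. ATP5F1D did not pass the test between groups.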

How the results depend on the processing

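With 3 against 3 samples in replicates 4 to 6, 17 nuclear members were lower and 0 mitochondrial members higher. Without PBKi replicates 3 and 6, chosen after seeing the data, 28 nuclear members were lower. An adjusted p under 0.01 left 37 nuclear members lower and 1 higher, and a log2 fold change of at least 0.5 left 1 and 0. The 1 left lower was UQCRHL, at a low level of 1.18 to 2.70 CPM. The shares of all genes at these thresholds are not given here. The nuclear members higher were 1 in place of 2 in lanes 6 to 8, in replicates 1 to 3 and without PBKi replicates 3 and 6. Leaving out 1 sample at a time gave 47 to 66 nuclear members lower, 1 to 2 higher and 11 to 13 mitochondrial members higher, with mean shares of mitochondrial reads of 0.671% to 0.797% in DMSO and 1.24% to 1.49% in PBKi. COX7B2 lost its call without DMSO replicate 1, PBKi replicate 1 or PBKi replicate 3. NDUFA4L2 turned to 0.05 on the log2 scale in replicates 1 to 3 (adjusted p = 0.84). Subsets have fewer samples by construction, and the cause of these shifts was not tested beyond that. All 13 mitochondrial members stayed higher, and 52 to 66 nuclear members lower, under RLE scaling, scaling on nuclear genes, no filter, a filter at 50 counts, lanes 6 to 8, a covariate for replicate set, limma-voom and DESeq2.

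The groups share replicate numbers, but the labels tie the numbers to no culture or day, so the samples were not treated as pairs. After centring each gene on its group mean, the correlation of same-numbered samples was 0.0887 for replicate 5 and 0.108 to 0.299 for the others. Differently numbered samples were not compared, so these values cannot decide whether the samples are paired. With the replicate block, 67 nuclear members were lower and 2 higher, and 13 mitochondrial members were higher. Of the single genes named, 78 of the values under an alternative lost their call, 28 of them in replicates 4 to 6.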
